A study of Mus musculus with 10 samples.

Results

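The 10 genes described here belong to the BCL2 family, which sets whether a cell keeps its mitochondria intact or enters apoptosis. They were taken by name from the deposited expression table (Bcl2, Bcl2l1, Mcl1, Bcl2a1b, Bcl2l11, Bbc3, Pmaip1, Bid, Bax and Bak1) and are 10 of 57825 listed genes, each name being listed once. The mRNA came from CD8+ T cells of mouse spleen (the methods name female Balb/c mice) that had been activated on plate-bound anti-CD3 with anti-CD28 and IL-2 for 12 h and then grown together with 4T1 cells, a mouse mammary carcinoma line, for 48 h. In the CD8+4T1 group (5 samples) no acetate was added, and in the CD8+4T1+NaAc group (5 samples) the T cells were given 5 mM sodium acetate (NaAc) for 24 h before the 4T1 cells. All samples carry the label day 3, and all were exposed to 4T1 cells, so no T cells without tumor cells are among them. No source used here says that the replicates came from separate mice, so the p-values measure the spread between these samples, which may be technical.

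In this family the survival proteins BCL2, BCL-XL (from Bcl2l1), MCL1 and A1 (from the Bcl2a1 genes) bind and restrain the death-promoting members. The BH3-only proteins BIM (from Bcl2l11), PUMA (from Bbc3), NOXA (from Pmaip1) and BID report stress by occupying the survival proteins or by activating the pore formers BAX and BAK, which then open the outer mitochondrial membrane and release cytochrome c. In T cells, BIM is known for removing activated cells when cytokines run out, MCL1 and BCL2 for keeping T cells alive, and A1 and BCL-XL for being induced by antigen receptor signals.

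Expression is given in FPKM, a fragment count divided by gene length and sample depth, and the depth was 16306447 to 18853726 fragments. The 15710 genes that averaged 0.5 FPKM or more, among them all 10 family genes, were compared with limma on log2(FPKM + 0.1), and a gene was called at an adjusted p under 0.05. Each fold change is on this log2 scale and is given with its standard error (SE). Replicate 1 of CD8+4T1+NaAc had fewer genes above 0 FPKM (20233) than the other samples of its group (24681 to 25088), and replicate 1 of CD8+4T1 had 22291 against 23786 to 24054, so results that rest on them are given without them as well. The cell type was checked on marker lists. All 12 T cell markers were tested and 8 were called, 7 lower (Cd3d, Cd3g, Lat, Cd3e, Lck, Cd2 and Cd5) and 1 higher (Zap70), with a median log2 fold change of -0.28. With the same total 5 were lower and 3 higher (Zap70, Cd8a and Cd8b1), and with scaling to these markers 3 each way. With FPKM as deposited Cd8a was not called and stood at 78.6 ± 2.34 without and 76.5 ± 4.37 FPKM with acetate (SD, n = 5), and the summed T cell markers ranged from 1017 to 1137 and from 907 to 1017 FPKM. The 12 epithelial and 4T1 markers summed to 8.18 to 18.1 FPKM in CD8+4T1 and to 64.5 to 173 FPKM in CD8+4T1+NaAc, with 5 of the 7 tested called higher, 5 under the filter and the defining marker Epcam at 0.519 and 0.699 FPKM. Of the 8 myeloid markers 3 were tested and 2 were called higher, S100a8 (0.398 and 2.94 FPKM) and Lyz2 (0.536 and 1.12 FPKM). The other tested myeloid marker, Cd68, was not called (25.8 and 22.8 FPKM) but was called lower without replicate 1 of both groups. S100a9 was at 0 in every sample. Of 5 B cell markers 2 were tested and limma called neither (Cd79b was called higher with the same total, with scaling to T cell markers, with the replicate number as a block and without replicate 1 of both groups), both NK markers were under the filter, and Cd4 was called higher at 0.541 and 1.60 FPKM. The part of these other cells in the results that follow was not tested except where a value is given. In such bulk samples fewer cells of a type and less RNA per cell cannot be told apart.

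The Bcl2a1 genes need a look at sequence first, because they are near-identical copies. Over the 519 coding bases of each copy in the GENCODE transcripts of build GRCm38, Bcl2a1b and Bcl2a1d were 98.8% identical and differed at 6 bases, Bcl2a1a and Bcl2a1d were 98.7% identical, and Bcl2a1a and Bcl2a1b 97.9%. The stretch of 120 coding bases with the most differences between Bcl2a1b and Bcl2a1d (bases 1 to 120, 3 differences) is shown because it carries what a read could use to part them, with the differing bases in capitals.
Bcl2a1b: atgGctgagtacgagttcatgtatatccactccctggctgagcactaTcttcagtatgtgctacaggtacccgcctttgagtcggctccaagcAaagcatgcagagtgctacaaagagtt
Bcl2a1d: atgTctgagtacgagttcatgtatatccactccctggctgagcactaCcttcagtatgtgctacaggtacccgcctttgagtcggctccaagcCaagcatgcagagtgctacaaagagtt
Elsewhere these copies share up to 217 coding bases without a difference, so the FPKM of a single copy are uncertain and depend on how the counting placed such reads.

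Promoters of the members were read from RefSeq (build GRCm38.p6, 250 bases before to 50 after each start), where 14 promoters of 9 of the 10 members, all but Pmaip1, were found. The whole Bcl2 promoter on chr1:106714241-106714540 (minus strand) held no match to any of the motifs searched. They were searched on both strands for GTAAACA, a FOXO motif, for GGNNTTTCC, an NF-kB motif, for the p53 half-site, for TTCNNNGAA, a STAT5 motif, for TGANTCA, an AP-1 motif, and for CACGTG, an E-box. These motifs were chosen after the expression values were known. The FOXO motif was in 2 of 14 promoters and in 3.65% of all 32851 promoters of this length, the NF-kB motif in 3 of 14 and 5.82%, the p53 half-site in 1 of 14 and 8.36%, and the E-box in 2 of 14 and 7.15%. The AP-1 motif was in 1 of 14 promoters (that of Bcl2a1b) and 7.81% of all, and the STAT5 motif in 0 of 14 and 8.3%. Windows of 81 bases are shown for the BH3-only genes Bcl2l11 and Bbc3, and for Bax and Mcl1, whose mRNA is compared next, with the match in capitals.
Bcl2l11, FOXO motif, chr2:128125788-128125868, plus strand: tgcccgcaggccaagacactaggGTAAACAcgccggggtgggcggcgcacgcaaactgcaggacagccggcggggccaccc
Bbc3, FOXO motif, chr7:16310057-16310137, plus strand: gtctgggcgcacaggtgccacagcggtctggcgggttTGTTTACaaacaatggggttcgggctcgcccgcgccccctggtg
Bax, p53 half-site, chr7:45467054-45467134, minus strand: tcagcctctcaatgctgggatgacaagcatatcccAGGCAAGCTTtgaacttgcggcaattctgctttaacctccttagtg
Mcl1, NF-kB motif, chr3:95658657-95658737, plus strand: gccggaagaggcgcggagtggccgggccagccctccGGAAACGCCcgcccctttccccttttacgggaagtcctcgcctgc
A match is a run of letters and not a measured site, and binding was not measured here.

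To see whether acetate moved the survival and death arms of the family, CD8+4T1+NaAc was compared with CD8+4T1. Of the 10 members, 7 were called, 6 lower (Bcl2, Bcl2l1, Mcl1, Bbc3, Pmaip1 and Bax) and 1 higher (Bid), and the 3 others (Bcl2a1b, Bcl2l11 and Bak1) were not called. Of all 15710 genes tested, 36.5% were called, 19.0% lower and 17.6% higher. The lower genes thus came from every arm of the family, survival, BH3-only and pore-forming. The median log2 fold change of the 10 members was -0.35, against -0.02 for all genes tested. The groups did not overlap for 5 members (Bcl2, Mcl1, Bbc3, Pmaip1 and Bax), where 26.4% of all genes tested had no overlap. The largest fall was that of Bcl2, to 22.0 FPKM from 36.4 FPKM. The falls of the other members called lower were between 15.6% and 26.6% of the CD8+4T1 mean. Part of this depends on the scaling. Of the depth by which FPKM were divided, 95.5% to 97.9% lay on listed genes in CD8+4T1. In CD8+4T1+NaAc this share was 89.8% to 92.1%, and the reason for the difference was not tested. The FPKM of all listed genes summed to 0.918 to 0.960 of their mean over samples in CD8+4T1+NaAc and to 1.01 to 1.09 in CD8+4T1, and when all samples were rescaled to one total, the median of all genes moved up by 0.17 on the log2 scale. Then 5 members were called, 3 lower (Bcl2, Pmaip1 and Bax) and 2 higher (Bid and Bcl2l11), so that 2 of 5 calls were higher in place of 1 of 7, while among all genes the share of higher calls went from 48.1% to 77.9%. Scaling to the T cell markers gave the same 5 calls, while median-ratio scaling and leaving out replicate 1 of both groups left the 7 calls in place.

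**Figure D1:**
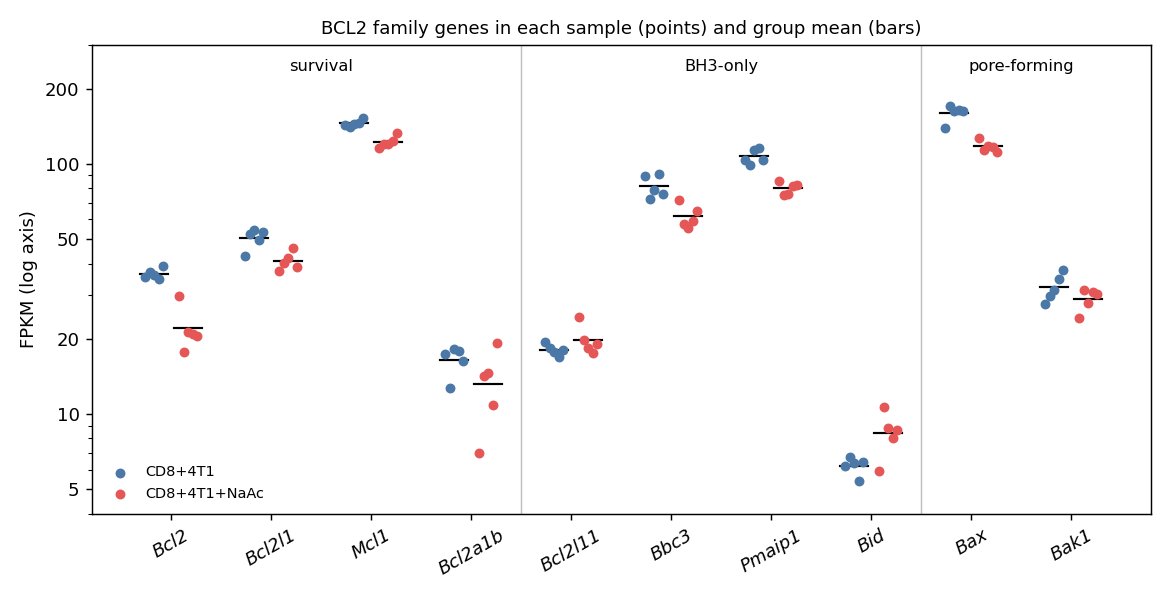
FPKM (log axis) of the 10 genes in each of the 5 CD8+4T1 and 5 CD8+4T1+NaAc samples, with points for samples and a black bar for the group mean, ordered by role in the family. The groups stand apart for Bcl2, Mcl1, Bbc3, Pmaip1 and Bax and overlap for the other 5 genes, and Bid is the gene called higher.

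Of the 4 survival members, Mcl1 was the most abundant per length in both groups. Mcl1 (ENSMUSG00000038612), which encodes a short-lived protein needed for T cell survival (chromosome 3, 95566099 to 95570487 in the table's coordinates), had 143, 141, 145, 146 and 152 FPKM in the CD8+4T1 samples and 116, 119.95, 120.05, 123 and 134 FPKM in the CD8+4T1+NaAc samples. Every acetate sample was below every sample without acetate. The means were 145 ± 4.29 and 123 ± 6.58 FPKM (SD, n = 5), which put the log2 fold change at -0.25 ± 0.05 (SE; limma adjusted p = 0.00264). This was a fall of 15.6%, and after rescaling to the same total it was -0.07 and no longer called (limma adjusted p = 0.298).

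Bcl2 (ENSMUSG00000057329), the founding survival gene of the family and a gene kept up by IL-7 in resting T cells, is listed on chromosome 1 from 106465908 to 106642004. It had 35.3, 36.8, 36.0, 34.6 and 39.2 FPKM in CD8+4T1 and 29.6, 17.7, 21.4, 20.9 and 20.5 FPKM in CD8+4T1+NaAc. Replicate 1 of CD8+4T1+NaAc was the highest of its group, and even this sample lay below the CD8+4T1 range. The means were 36.4 ± 1.75 and 22.0 ± 4.45 FPKM (SD, n = 5), which put the log2 fold change at -0.74 ± 0.11 (SE; limma adjusted p = 0.000534). With each sample left out in turn the log2 fold change stayed between -0.85 and -0.67, and it was -0.57 with the same total (limma adjusted p = 0.00362) and -0.54 with scaling to T cell markers (limma adjusted p = 0.00771), so Bcl2 was called lower under every scaling tried. The 3 protein-coding genes most like Bcl2 across the 10 samples, among 7052 genes that averaged 5 FPKM or more, were Nucks1 (Pearson r = 0.991), Hk1 (0.989) and Elk4 (0.989). These correlations of log2(FPKM + 0.1) include the difference between the groups, and all 3 genes were lower with acetate, Nucks1 at 44.5 ± 1.52 and 28.9 ± 5.95 FPKM (SD, n = 5).

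Bcl2l1 (ENSMUSG00000007659), which encodes BCL-XL (chromosome 2, 152622588 to 152673648), had 42.9, 52.5, 54.5, 49.8 and 53.4 FPKM in CD8+4T1 and 37.4, 40.3, 42.3, 45.9 and 38.6 FPKM in CD8+4T1+NaAc. The groups overlapped through replicate 1 of CD8+4T1 and replicate 4 of CD8+4T1+NaAc. The means were 50.6 ± 4.64 and 40.9 ± 3.36 FPKM (SD, n = 5), which put the log2 fold change at -0.31 ± 0.08 (SE; limma adjusted p = 0.0101), which was -0.13 and not called with the same total (limma adjusted p = 0.171). Bcl2a1b (ENSMUSG00000089929), an A1 copy listed on chromosome 9 from 89081262 to 89089880, was the most scattered of the survival genes, with 17.4, 12.8, 18.2, 17.9 and 16.2 FPKM in CD8+4T1 and 7.02, 14.2, 14.6, 10.9 and 19.3 FPKM in CD8+4T1+NaAc. The acetate samples held both its lowest and its highest value. Its log2 fold change was -0.39 ± 0.23 (SE; limma adjusted p = 0.224), and only 98 to 262 fragments per sample lay behind it. Without replicate 1 of CD8+4T1+NaAc it was -0.18.

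Most A1 mRNA was assigned to the copy Bcl2a1d. Bcl2a1b held between 4.99% and 11.8% of the fragments of the 3 copies in a sample (median 7.43%), and Bcl2a1a stood at 0.751 and 0.699 FPKM. Bcl2a1d fell from 206 ± 9.29 to 131 ± 7.88 FPKM (SD, n = 5), which put the log2 fold change at -0.65 ± 0.06 (SE; limma adjusted p = 2.42e-05). A sum of the 3 copies was added after the data were seen. A read placed on another copy stays within this sum, although each copy was divided by its own length. How the counting treated reads that match several copies is not known here, and any that were dropped are missing from the sum. It was between 209 and 239 FPKM in CD8+4T1 and between 132 and 157 FPKM in CD8+4T1+NaAc. The groups did not overlap, and the sum was lower by a log2 fold change of -0.63 (exact permutation test, two-sided, p = 0.00794, the smallest that 5 against 5 samples allow). The copies together averaged 224 and 145 FPKM, above the means of Mcl1 in both groups, while the single copy Bcl2a1b was near the bottom of the family.

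Shares within a sample do not change with the scaling between samples. Mcl1 made up between 57.2% and 59.9% of the summed FPKM of Mcl1, Bcl2l1, Bcl2 and Bcl2a1b in CD8+4T1 and between 60.5% and 63.0% in CD8+4T1+NaAc, without overlap. Bcl2 made up 14.0% to 15.1% in CD8+4T1 (median 14.8%), and in CD8+4T1+NaAc it made up 15.5% in replicate 1 and 9.22% to 10.8% in the other 4 samples (median 10.4%). Of these 4 members, Mcl1 thus held a larger share in every acetate sample and Bcl2 a smaller one in 4 of 5. With all A1 copies counted in place of Bcl2a1b, which was added after the data were seen, Mcl1 made up 30.5% to 32.9% in CD8+4T1 and 35.4% to 38.3% in CD8+4T1+NaAc, A1 47.2% to 50.4% and 41.0% to 45.8%, and neither overlapped. Bcl2 then made up 7.55% to 8.45% in CD8+4T1 and, with acetate, 9.33% in replicate 1 and 5.43% to 6.49% in the other 4 samples. The share of Bcl2l1 (medians 20.4% and 21.0%) and that of Bcl2a1b (medians 7.16% and 7.37%) overlapped between the groups. These shares describe the samples and were not tested.

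**Figure D2:**
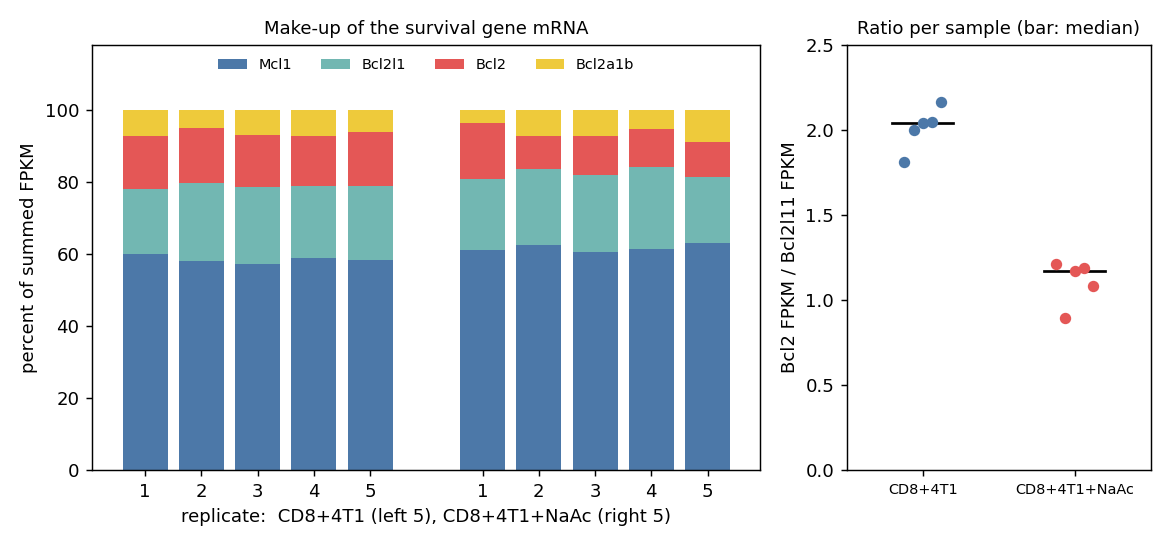
Left, percent of the summed FPKM of 4 survival genes in each sample (stacked bars; CD8+4T1 replicates on the left, CD8+4T1+NaAc on the right). Right, Bcl2 FPKM divided by Bcl2l11 FPKM per sample (points) with the group median (bar): all 5 acetate samples lie between 0.895 and 1.21, below the range of 1.81 to 2.16 without acetate.

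The BH3-only genes did not move together. Bcl2l11 (ENSMUSG00000027381), which encodes BIM (chromosome 2, 127967958 to 128004467), had 19.5, 18.5, 17.6, 16.9 and 18.1 FPKM in CD8+4T1 and 24.4, 19.8, 18.3, 17.6 and 19.0 FPKM in CD8+4T1+NaAc. The ranges overlapped, with replicate 1 of CD8+4T1+NaAc above all other samples. The log2 fold change was 0.12 ± 0.08 (SE; limma adjusted p = 0.287), and 0.04 without that replicate. With the same total it was 0.30 and called (limma adjusted p = 0.0263). Because BIM is held in check by BCL2 among others, the ratio of their mRNAs was taken in each sample. Bcl2 FPKM divided by Bcl2l11 FPKM were 1.81, 2.00, 2.04, 2.05 and 2.16 in CD8+4T1 and 1.21, 0.895, 1.17, 1.19 and 1.08 in CD8+4T1+NaAc. There was about 2 times as much Bcl2 as Bcl2l11 mRNA per length without acetate and close to equal amounts with it. The ratio of Mcl1 to Bcl2l11, added after the values were seen, was 7.32 to 8.62 in CD8+4T1 and 4.77 to 7.03 in CD8+4T1+NaAc, also without overlap. Both ratios are descriptions of mRNA, and the proteins were not measured in these samples.

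Bbc3 (ENSMUSG00000002083) encodes PUMA, a p53 target that binds all survival proteins, and is listed on chromosome 7 from 16042318 to 16052130. It had 89.5, 72.2, 78.6, 90.9 and 75.7 FPKM in CD8+4T1 and 71.9, 57.6, 55.2, 59.3 and 64.6 FPKM in CD8+4T1+NaAc. The groups came close to each other, with the highest acetate sample just below the lowest sample without acetate. The log2 fold change was -0.40 ± 0.09 (SE; limma adjusted p = 0.00494), and -0.22 without a call with the same total (limma adjusted p = 0.0894).

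Pmaip1 (ENSMUSG00000024521) encodes NOXA, which is known for binding MCL1 and A1, and is listed on chromosome 18 from 66591604 to 66598636. It had 103, 99.2, 113, 116 and 104 FPKM in CD8+4T1 and 85.6, 74.8, 75.9, 81.6 and 82.0 FPKM in CD8+4T1+NaAc. The groups were well apart. The means were 107 ± 7.26 and 80.0 ± 4.51 FPKM (SD, n = 5), which put the log2 fold change at -0.42 ± 0.06 (SE; limma adjusted p = 0.000353). The fall of Pmaip1 was called under every scaling tried, with a log2 fold change of -0.24 for the same total.

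Bid (ENSMUSG00000004446) links death receptors to the mitochondria once caspase-8 has cut its protein, and is listed on chromosome 6 from 120868891 to 120893814. It was the lowest member in both groups, with 6.19, 6.72, 6.39, 5.42 and 6.42 FPKM in CD8+4T1 and 5.95, 10.7, 8.81, 8.04 and 8.62 FPKM in CD8+4T1+NaAc. Replicate 1 of CD8+4T1+NaAc lay inside the CD8+4T1 range, and the other 4 acetate samples above it. The log2 fold change was 0.41 ± 0.13 (SE; limma adjusted p = 0.0324), and 317 to 717 fragments per sample lay behind it. The call was kept with replicate 1 of CD8+4T1+NaAc left out (log2 fold change 0.53, limma adjusted p = 0.00103) or replicate 2 of CD8+4T1 left out, and was lost with any of the other 8 samples left out (limma adjusted p up to 0.0758). The summed epithelial and 4T1 markers, whose part in the rise of Bid was not tested, were 73.6 FPKM in replicate 1 of CD8+4T1+NaAc and 173, 101, 127 and 64.5 FPKM in replicates 2 to 5.

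The pore formers differed in level and in change. Bax (ENSMUSG00000003873), a p53 target on chromosome 7 from 45111121 to 45116322, had 139, 170.5, 163, 164 and 163 FPKM in CD8+4T1 and 126.8, 113.8, 118.5, 117.3 and 111.2 FPKM in CD8+4T1+NaAc. No acetate sample reached the CD8+4T1 range, although replicate 1 of each group lay nearest the other group. The means were 160.1 ± 11.96 and 117.5 ± 5.95 FPKM (SD, n = 5), which put the log2 fold change at -0.44 ± 0.06 (SE; limma adjusted p = 0.000353), and -0.27 with the same total (limma adjusted p = 0.00413). Bak1 (ENSMUSG00000057789), which encodes BAK (chromosome 17, 27238784 to 27247983), had 27.6, 29.6, 31.5, 34.7 and 37.6 FPKM in CD8+4T1 and 24.2, 31.3, 27.8, 30.7 and 30.2 FPKM in CD8+4T1+NaAc. The groups overlapped widely, and the log2 fold change was -0.15 ± 0.10 (SE; limma adjusted p = 0.236), turning to 0.02 with the same total. It was -0.09 without replicate 1 of CD8+4T1+NaAc and -0.10 without replicate 5 of CD8+4T1.

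**Figure D3:**
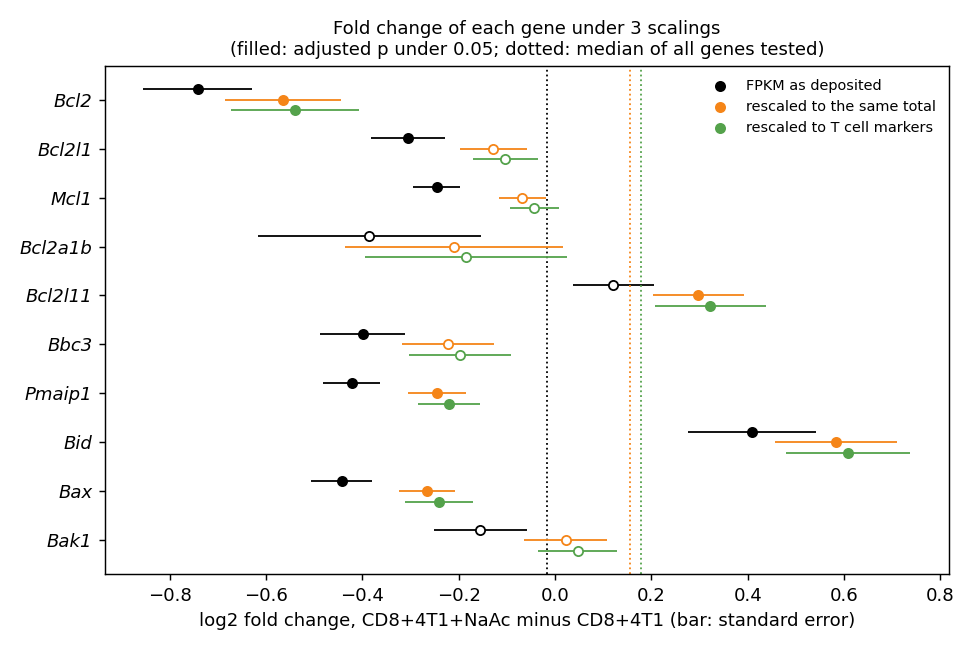
Log2 fold change of each gene (CD8+4T1+NaAc minus CD8+4T1, bars are standard errors) for FPKM as deposited, rescaled to the same total and rescaled to T cell markers. Filled points have a limma adjusted p under 0.05 and dotted lines mark the median of all genes tested (-0.02, 0.15 and 0.18): Bcl2, Pmaip1, Bax and Bid are filled under all 3 scalings.

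FPKM are divided by the listed length of each gene, and the levels are set side by side on that length. Which transcript forms the cells made was not measured. Without acetate the order from high to low was Bax, Mcl1, Pmaip1, Bbc3, Bcl2l1, Bcl2, Bak1, Bcl2l11, Bcl2a1b and Bid. The values of neighbours in this order did not overlap, except for Bax and Mcl1, Bcl2 and Bak1, and Bcl2l11 and Bcl2a1b. With acetate Mcl1 stood above Bax and Bak1 above Bcl2, and the values of Mcl1 and Bax overlapped, as did those of each pair of neighbours from Bak1 down to Bid. All members but Bid lay above 76.7% or more of the genes tested, Bax and Mcl1 above 98.3% and 98.2%, and Bid above 59.7%.

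The other genes of the pathway were read from lists written from their known roles, with earlier results of these data known. Of the 13 other BCL2 family genes, 10 were tested, 2 were called higher and 2 lower (median log2 fold change -0.13), a share close to the 36.5% of all genes tested. Bok, which encodes a pore-forming relative of BAX, rose from 1.19 ± 0.285 to 3.96 ± 1.56 FPKM (SD, n = 5; log2 fold change 1.60, limma adjusted p = 0.000688), beside the higher epithelial and 4T1 markers given before, whose part in it was not tested. Bmf, a BH3-only gene, rose from 3.55 ± 0.434 to 5.498 ± 0.763 FPKM (SD, n = 5; log2 fold change 0.61, limma adjusted p = 0.00166). Bcl2l2, which encodes the survival protein BCL-W, had a log2 fold change of -0.36 (limma adjusted p = 0.0379), a call that was lost with the same total, with scaling to T cell markers and with any of 7 of the 10 samples left out (limma adjusted p up to 0.0878). The other lower gene was Bcl2a1d. The BH3-only gene Hrk and the survival gene Bcl2l10 were under the filter.

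Downstream of the mitochondria, 5 of 13 apoptosome and caspase genes were called, 4 lower and 1 higher (median log2 fold change -0.22), again close to that share. After rescaling to one total the calls were 3 higher and 4 lower (median -0.06), and with scaling to T cell markers 3 each way, Casp8 no longer among them. Cycs, which encodes cytochrome c, fell from 87.5 ± 5.39 to 48.1 ± 4.45 FPKM (SD, n = 5; log2 fold change -0.87, limma adjusted p = 2.01e-05). Apaf1, the scaffold that cytochrome c assembles into the apoptosome, had a log2 fold change of -0.43 and the initiator gene Casp8 one of -0.34. Casp9, the caspase recruited by APAF1, was higher at 0.56 (limma adjusted p at most 0.0135 for each of these genes). Casp9 stood low, at 1.12 FPKM without and 1.69 FPKM with acetate, and its groups overlapped. Of 6 inhibitors of caspases 3 were called, all lower: Cflar, which blocks caspase-8 (-0.51), Birc3 (-0.51) and Birc2 (-0.23). Without replicate 1 of CD8+4T1+NaAc 5 of the 6 were called, and with the same total or scaling to T cell markers 4 were, 2 higher (Birc5 and Birc6) and 2 lower (Birc3 and Cflar). Of 8 death receptor and ligand genes, 1 was called higher, the TNF receptor gene Tnfrsf1a (0.69), and 2 lower, the TRAIL receptor gene Tnfrsf10b (-0.52) and Fas (-0.32, not called with the same total).

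With FPKM as deposited the p53 list held a larger share of calls than the other 5 lists or all genes tested (36.5%). That list, like the others, was chosen with earlier results of these data known. Bax, Bbc3 and Pmaip1 are known p53 targets, and of 13 other genes (Trp53 itself and further targets), 10 were called, 9 lower and 1 higher, with a median log2 fold change of -0.23. Among the 9 was Ei24 (log2 fold change -0.19, limma adjusted p = 0.0471). Its call was lost with median-ratio scaling, with the replicate number as a block and with any of 9 of the 10 samples left out. Cdkn1a, which encodes the cell cycle inhibitor p21, fell from 241 ± 4.18 to 159 ± 19.2 FPKM (SD, n = 5; log2 fold change -0.61, limma adjusted p = 0.000147). Sesn2 had a log2 fold change of -0.42 and Trp53 one of -0.33, from 50.2 ± 3.51 to 39.9 ± 2.56 FPKM (SD, n = 5), while Sesn1 was higher (0.47, limma adjusted p = 0.00494). This count rests on the scaling: with the same total 4 genes were called, 2 higher (Sesn1 and Perp) and 2 lower (Cdkn1a and Sesn2), and with scaling to T cell markers 3, Sesn2 being lost. Trp53 was called under neither. Relative to the median of all genes, which moved with the scaling, the median of the list was -0.21 with FPKM as deposited and -0.20 with the same total. Of 17 upstream regulators 3 were called higher and 6 lower (median log2 fold change 0.02). Il7r, the receptor for the cytokine that sustains Bcl2 in resting T cells, was at 13.6 ± 0.722 and 24.4 ± 3.95 FPKM (SD, n = 5; log2 fold change 0.82, limma adjusted p = 0.000184). The kinase gene Pim1 (-0.49), Ddit3 (-0.47) and Foxo3 (-0.40) were among those lower, Foxo3 encoding a factor known to drive Bcl2l11 and Bbc3. The call of Foxo3 was lost with the same total and with scaling to T cell markers. With the same total, where more genes were called higher, the split of this list was 7 higher and 2 lower, and that of the death receptor list 5 higher and 1 lower.

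**Figure D4:**
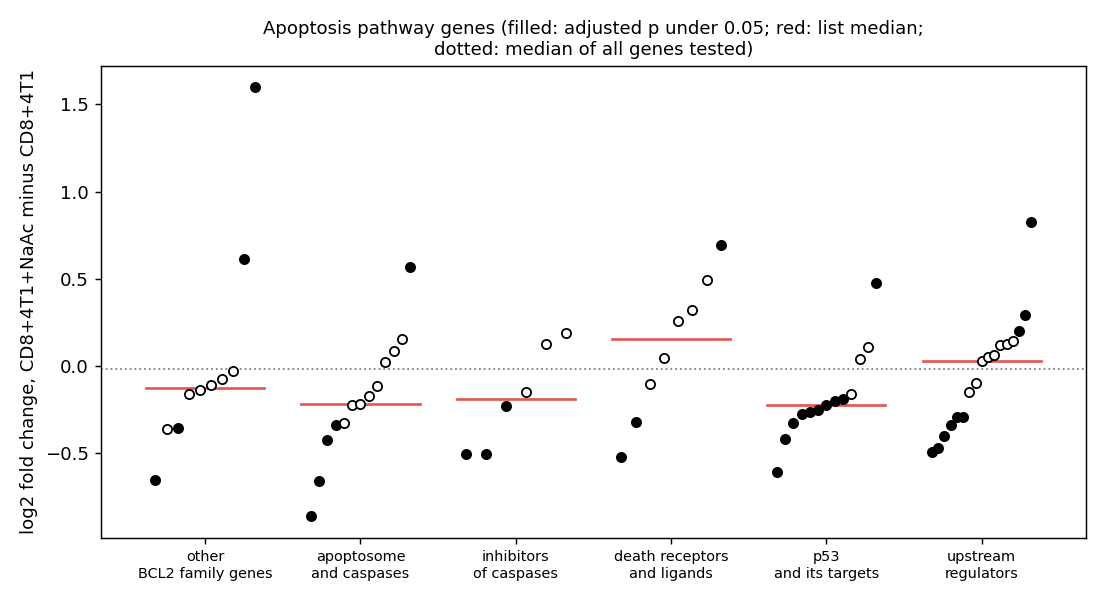
Log2 fold change (CD8+4T1+NaAc minus CD8+4T1, FPKM as deposited) of each tested gene of 6 pathway lists, 1 point a gene, with filled points for a limma adjusted p under 0.05, red bars for list medians and a dotted line for the median of all genes tested (-0.02). In the list of p53 and its targets 9 of 13 genes are filled and lower, and the single genes farthest from 0 are Bok (1.60) and Cycs (-0.87).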

How the data were processed

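RNA of purified CD8+ T cells was sequenced in 10 samples; per the labels the authors used fastp, HISAT2 2.0.5, StringTie 1.3.3b and featureCounts 1.5.0-p3, with a NEBNext Ultra kit. Genome build and strand setting are not given in the sources used here, so gene positions are as the table lists them. These differ from the GRCm38.p6 positions given for the promoters, so gene and promoter positions cannot be set side by side. The authors deposited FPKM, with gene length as an other column. FPKM times length were whole multiples of a step for 100.0% of values (within 0.1), which gave the fragments.

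Family genes and lists were chosen with earlier results of these data known. limma 3.58.1 in R 4.3.3 (trend, robust, Benjamini-Hochberg over 15710 genes) was fitted to log2(FPKM + 0.1), since FPKM are not counts, and tested on simulated data. All 10 members are named, with up to 4 called genes a list (by size of change) and 3 genes most like Bcl2; other genes named serve as markers or were chosen after their values were seen. Some list genes are counted in their list and not reported here by name. Alternatives were pseudocounts 1 and 0.01, no filter, a mean of at least 5 FPKM, 3 scalings, plain limma, voom on fragments, a replicate block and left-out samples. Sequences came from RefSeq (GRCm38.p6) and GENCODE (GRCm38), and copies were aligned with biopython 1.88.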

Additional observations from a re-analysis of the deposited data

Results flagged for a closer look

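Samples are listed here when they lay far from the 4 others of their group, with a gap to the next value of more than 0.71 of the span of all 5. Of 38 groups of 5 values checked, 5 held such a sample, where chance gives about 1.9. Replicate 1 of CD8+4T1 had the lowest Bax of its group (139 FPKM against 163 to 170.5, a gap of 0.783 of the span on the log2 scale). Replicate 1 of CD8+4T1+NaAc had the highest Bcl2 share of the survival genes (15.5% against 9.22% to 10.8%, a gap of 0.753). Replicate 1 also had the fewest genes above 0 FPKM in CD8+4T1 (0.848) and in CD8+4T1+NaAc (0.916), and replicate 2 of CD8+4T1+NaAc had the most fragments (18853726, 0.747). The reason for these gaps was not tested. Without replicate 1 of both groups the same 7 members were called, with Bcl2 at a log2 fold change of -0.86 and Bax at -0.52.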

How the results depend on the processing

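Bcl2, Pmaip1 and Bax were called lower under every alternative run. With the same total and with scaling to T cell markers, respectively, the log2 fold changes were -0.13 and -0.10 for Bcl2l1, -0.068 and -0.043 for Mcl1 and -0.22 and -0.20 for Bbc3, none called, and 0.30 and 0.32 for Bcl2l11, both called; Bak1 turned to 0.022 and 0.047, not called. The cause was not tested. Without a filter on low values Bid kept its log2 fold change of 0.41 with a limma adjusted p of 0.0630. A filter at a mean of 5 FPKM left 3733 called genes against 5742, with fewer genes tested. With each sample left out, Bid ranged from 0.32 to 0.53, 6 to 7 members were called, and 4924 to 6930 of all genes. The A1 copies summed gave -0.63 against -0.39 for Bcl2a1b alone, and moved the difference between group medians of the survival shares from 3.03 to 4.68 percentage points for Mcl1, to -1.63 for Bcl2 and to -5.001 for A1. With the replicate number as a block (replicate block), 7 members and 5399 genes were called and no member's call changed. Bcl2l2, Ei24 and the T cell marker Cd2 were no longer called. Same-numbered samples deviated from their group means with correlations of -0.03 to 0.07 across genes and were not treated as pairs. Depth limits Bcl2a1b most (98 to 262 fragments).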
